A study of Homo sapiens with 6 samples.

Results

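Core binding factor is a pair of proteins, a DNA-binding RUNX subunit and CBFB, and its genes were followed here together with 3 corepressors and the fusion partner of CBFB in the human acute myeloid leukaemia line ME-1. The 8 genes were CBFB (ENSG00000067955.15), RUNX1 (ENSG00000159216.19), RUNX2 (ENSG00000124813.23), RUNX3 (ENSG00000020633.19), RUNX1T1 (ENSG00000079102.16), CBFA2T2 (ENSG00000078699.22), CBFA2T3 (ENSG00000129993.15) and MYH11 (ENSG00000133392.18), found by symbol among the 34371 features of a gene count table. ME-1 is known to carry the CBFB::MYH11 fusion, which all 6 libraries would share. The cells of 3 libraries had been transduced with an empty control vector and those of the other 3 with a vector for overexpression of SPNS2, an exporter of sphingosine-1-phosphate, and infected cells had been selected before polyadenylated RNA was extracted. The labels give no promoter, dose, time or clone. Nothing in them ties the libraries to separate cultures or to batches, so the p-values measure only the spread between these libraries, which may be technical.

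A RUNX protein reads the DNA through its Runt domain, and CBFB, which does not touch DNA, binds that domain and strengthens its grip. RUNX1 is needed for definitive blood stem cells and sets up myeloid and megakaryocytic genes, RUNX2 is best known from bone, and RUNX3 from lymphocytes. The inversion of chromosome 16 joins the start of CBFB to the coiled-coil tail of MYH11, the smooth muscle myosin heavy chain, and the fused protein holds RUNX1 in abnormal complexes. RUNX1T1, CBFA2T2 and CBFA2T3 are related corepressors that carry histone deacetylases to DNA-bound factors, and RUNX1T1 and CBFA2T3 are fused to RUNX1 in other leukaemias.

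RUNX proteins bind the letters TGTGGT, and less often TGCGGT, so promoter windows of the 8 genes were searched for both motifs on both strands. The RefSeq table of promoters (GRCh38.p14, 250 bases before to 50 after a start) held 7 windows for 5 of the 8 genes, RUNX1, RUNX2, RUNX3, CBFA2T2 and CBFA2T3. The stretches below are shown because the far upstream windows of RUNX3 and RUNX2 each hold the reverse complement ACCACA as a pair. The copies have 2 bases between them. RUNX3 was also picked as the RUNX gene with the largest measured difference (log2 fold change 0.32 with SPNS2, against 0.06 for RUNX2). Whether the motifs bear on any measured difference was not tested. Capitals mark the motifs.
RUNX3: ccctcaACCACAgaACCACAaggccagg
RUNX2: caaacaACCACAgaACCACAagTGCGGT
The RUNX3 stretch lies on the minus strand at chr1:24965120-24965147, 137 to 110 bases before the listed start. The RUNX2 stretch lies on the plus strand at chr6:45328340-45328367, 10 to 37 bases after the listed start. The RUNX2 window held 4 copies of TGTGGT and 1 of TGCGGT in all, and the RUNX3 window held 2 copies of TGTGGT. Of 35116 promoter windows of this length, 13.1% held TGTGGT, 1.31% held it at least 2 times, 7.29% held TGCGGT, and 3 held the pair printed here, which was noticed after the sequences were seen. The other 5 windows, of RUNX1, CBFA2T2, CBFA2T3 and the second starts of RUNX2 and RUNX3, held neither motif. For RUNX1 the only window listed was chr21:34888650-34888949. Any other start of RUNX1 was not searched, so the absence of motifs covers that window only.

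Library totals ran from 28605187 to 38489992 counts. The row for the vector form of SPNS2 held 24792 to 25752 counts in the SPNS2 libraries and 0 to 9 in the empty vector libraries. Of 11 myeloid marker genes, all had counts and their summed level was 28022 to 28478 CPM (counts relative to the scaled library total) with the empty vector and 27878 to 29351 CPM with SPNS2, most of it MPO (log2 fold change -0.01, not called). Of the 10 myeloid markers tested, KIT (0.55) and PTPRC (0.26) were called higher and CD33 (-0.71), LYZ (-0.32), FCGR1A (-0.29) and CD34 (-0.25) lower, given as log2 fold changes by edgeR. Among the myeloid markers, CD14 had only 4 counts and ITGAM 101 over the 6 libraries. The eosinophil markers PRG3 and CLC were at 0, and EPX and PRG2 had 2 counts each over the 6 libraries. Of 5 T cell markers 4 had counts (1 called higher, 1 lower), with a summed level of 3.69 to 4.74 and 2.96 to 3.50 CPM, and CD2 was at 0. B cell markers summed to 6.53 to 7.32 and 7.37 to 7.65 CPM, with MS4A1 at 0. Fibroblast markers summed to 0.124 to 0.316 and 0.0637 to 0.247 CPM, with LUM at 0, and endothelial markers to at most 0.0593 CPM in any library, with CDH5 at 0. Of 4 epithelial markers, EPCAM alone was above 1 CPM and was called higher (log2 fold change 0.19), and KRT18 and KRT19 were at 0. The part of these markers in the results on core binding factor genes was not tested. In bulk RNA, fewer cells of a type and less RNA per cell cannot be told apart.

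The core binding factor genes that changed were all higher with SPNS2, and by modest amounts. Of the 8 genes, 7 passed the filter on low counts, 4 of these were called higher, 0 were called lower and 3 were not called, at an adjusted p under 0.05 by the edgeR quasi-likelihood test. Over all features, 24.5% of 13308 tested features were called, 11.9% higher and 12.6% lower. The called genes were RUNX3, CBFA2T3, RUNX1T1 and RUNX1. All 7 tested genes had a positive log2 fold change, with a median of 0.13 beside a median of 0.0026 for all tested features. The libraries of the 2 groups did not overlap for 6 of the 7 genes, each time with SPNS2 above, which held for 19.8% of all tested features (40.1% in either direction).

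**Figure D1:**
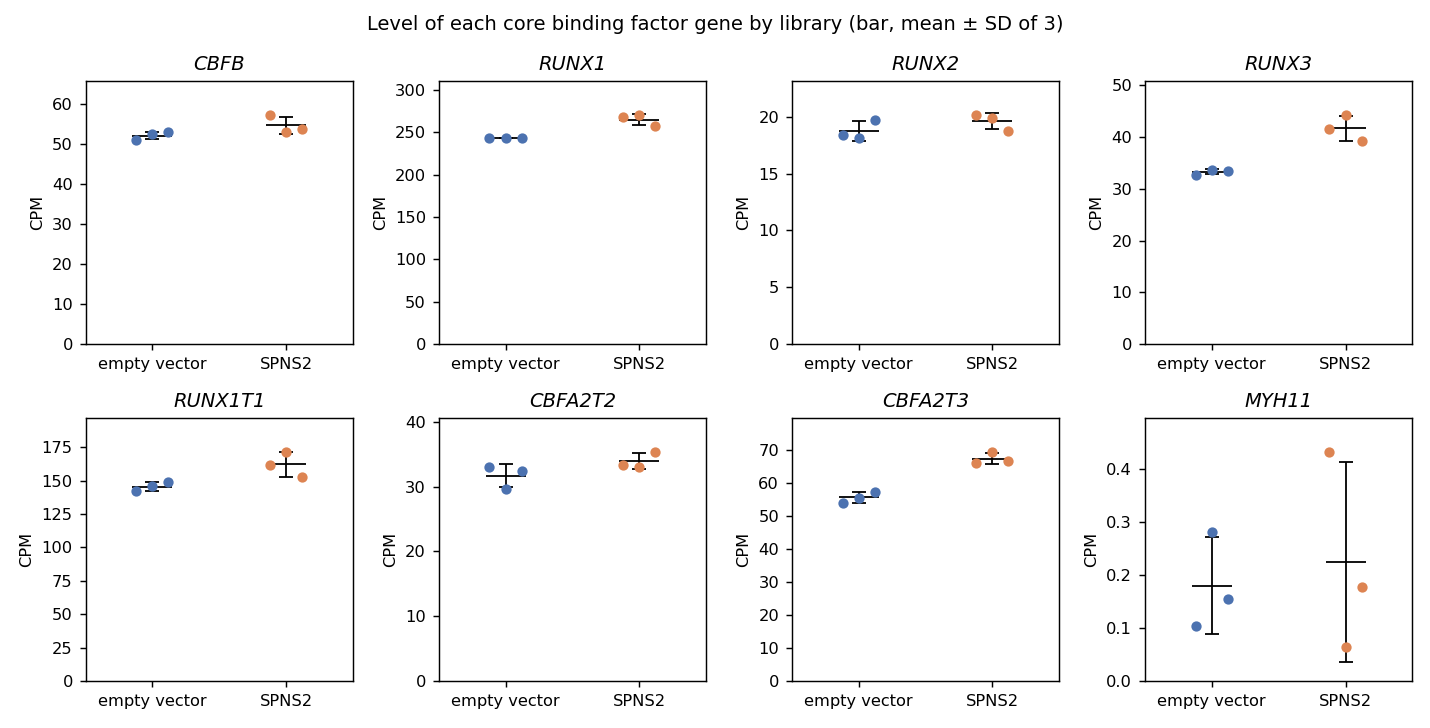
Level of each of the 8 genes in CPM (vertical axes, each from 0) in the 3 empty vector and 3 SPNS2 libraries; points are libraries and bars are mean ± SD. RUNX3, CBFA2T3, RUNX1T1 and RUNX1 show SPNS2 libraries above every empty vector library. So do CBFB and CBFA2T2, which were not called, but only just. MYH11 stays under 0.5 CPM throughout.

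CBFB, the shared beta subunit, was at 51.0, 52.4 and 52.9 CPM in the empty vector libraries and at 57.1, 53.0 and 53.8 CPM in the SPNS2 libraries. The lowest SPNS2 library and the highest empty vector library were nearly level, and only SPNS2 library 1 stood clear. The log2 fold change was 0.07 (SE 0.0369, 95% interval -0.01 to 0.15, adjusted p = 0.206 by edgeR). Counts per gene do not separate the transcript of the normal CBFB allele from that of the fusion, which share the first part of the gene.

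RUNX1 was at 243 CPM in each of the 3 empty vector libraries (SD 0.0230) and at 268, 270 and 257 CPM in the SPNS2 libraries. The spread with the empty vector was smaller than the 2.71 CPM that counting alone would give at this depth. The rise of 9.11% (95% interval 4.78 to 13.6%) was 0.13 on the log2 scale with SE 0.0265 (edgeR adjusted p = 0.00571). RUNX1 stayed called under each of 13 alternative settings, with an adjusted p of 0.000366 to 0.0310.

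RUNX3 had the largest difference of the 7 tested genes. It was at 32.7, 33.7 and 33.4 CPM in the empty vector libraries, against 41.5, 44.2 and 39.3 in those with SPNS2. All SPNS2 libraries stood above all empty vector libraries, with a wider spread among them. The rise was 25.2% (95% interval 16.9 to 34.2%), or 0.32 on the log2 scale with SE 0.0454 (edgeR adjusted p = 0.000490), and 13.5% of all tested features had a larger absolute change. The call held under each of the 13 alternatives, with log2 fold changes of 0.28 to 0.37.

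RUNX2 was the lowest of the 3 RUNX genes per length and did not pass. It was at 18.4, 18.1 and 19.7 CPM in the empty vector libraries, against 20.1, 19.9 and 18.8 in those with SPNS2, and the groups overlapped. The log2 fold change was 0.06 (95% interval -0.05 to 0.18, adjusted p = 0.436 by edgeR).

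**Figure D2:**
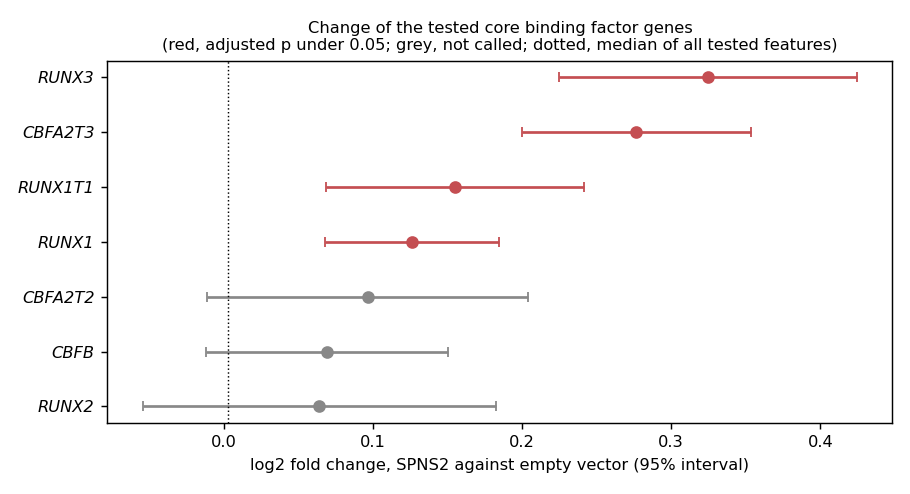
Log2 fold change of the 7 tested genes (horizontal axis) with 95% intervals, in order of size; red points were called and grey points were not, and the dotted line is the median of all tested features. The intervals of RUNX3, CBFA2T3, RUNX1T1 and RUNX1 lie above 0, and those of CBFA2T2, CBFB and RUNX2 include it.

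Levels of different genes can be compared only per length, here as CPM per kilobase of the longest annotated transcript. On that scale the empty vector levels were 33.4 for RUNX1, 18.9 for RUNX1T1, 16.6 for CBFB, 12.4 for CBFA2T3, 7.67 for RUNX3, 4.06 for CBFA2T2, 3.19 for RUNX2 and 0.0261 for MYH11, and neighbours in this order did not overlap over the 3 libraries. The SPNS2 libraries had the same order, from 36.4 for RUNX1 to 3.33 for RUNX2. The order rests on the length used. With the median transcript length of each gene, RUNX1T1 (231) came before RUNX1 (153), CBFB (85.4) and CBFA2T3 (83.8), and RUNX2 (8.30) before CBFA2T2 (5.89).

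The share of RUNX3 among the RUNX genes was higher in every SPNS2 library than in any empty vector library. RUNX3 made up 17.1, 17.6 and 17.3% of the summed RUNX level per length with the empty vector and 19.2, 20.1 and 19.0% with SPNS2. RUNX1 made up 75.5 ± 0.322% and 73.8 ± 0.527% (SD, n = 3 each), and RUNX2 7.21 ± 0.315% and 6.75 ± 0.101% (SD, n = 3 each). Each of these 3 shares gave p = 0.10 in a 2-sided exact permutation test, the smallest that 3 libraries against 3 can give, and 0.133 adjusted over 8 such shares and ratios. The RUNX3 share depended on the length used, in its empty vector level, at 7.26% with median transcript lengths and 11.3% without a length, and in its difference, at 2.11 percentage points as given, 0.995 with median lengths and 1.48 without a length. The difference of the RUNX1 share was -1.66 points as given and -0.757 with median lengths. That of the RUNX2 share was -0.453 as given, -0.238 with median lengths and -0.275 without empty vector library 3. CBFB stood at 0.376 ± 0.00548 of the summed RUNX level with the empty vector and at 0.353 ± 0.0173 with SPNS2 (SD, n = 3 each; log2 difference -0.09, exact permutation p = 0.10, adjusted 0.133). Without SPNS2 library 2 that log2 difference was -0.05.

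Of the 3 corepressor genes CBFA2T3 and RUNX1T1 rose, and CBFA2T2 was not called. CBFA2T3, the corepressor of the family best known from erythroid and megakaryocytic progenitors, was at 54.0, 55.5 and 57.4 CPM in the empty vector libraries, against 66.2, 69.4 and 66.5 in those with SPNS2. Every SPNS2 library was well above every empty vector library. The rise was 21.1% (95% interval 14.8 to 27.7%), or 0.28 on the log2 scale with SE 0.0350 (edgeR adjusted p = 0.000270). No other of the 7 tested genes had a smaller adjusted p.

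RUNX1T1, the partner of RUNX1 in the t(8;21) fusion of another core binding factor leukaemia, was at 142, 146 and 149 CPM in the empty vector libraries, against 162, 171 and 153 in those with SPNS2. The groups did not overlap, with SPNS2 library 3 nearest to the empty vector libraries. The rise of 11.4% (95% interval 4.86 to 18.2%, log2 fold change 0.16, adjusted p = 0.0150 by edgeR) was past the threshold with all 6 libraries. Without SPNS2 library 1 the log2 value was again 0.16 but the adjusted p was 0.0501, and without SPNS2 library 2 they were 0.11 and 0.0594.

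CBFA2T2 was at 33.02, 29.7 and 32.4 CPM in the empty vector libraries, against 33.4, 33.1 and 35.4 in those with SPNS2. The groups only just stayed apart, and empty vector library 2 was the low one. The log2 fold change of 0.10 (95% interval -0.01 to 0.20, adjusted p = 0.185 by edgeR) did not pass.

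**Figure D3:**
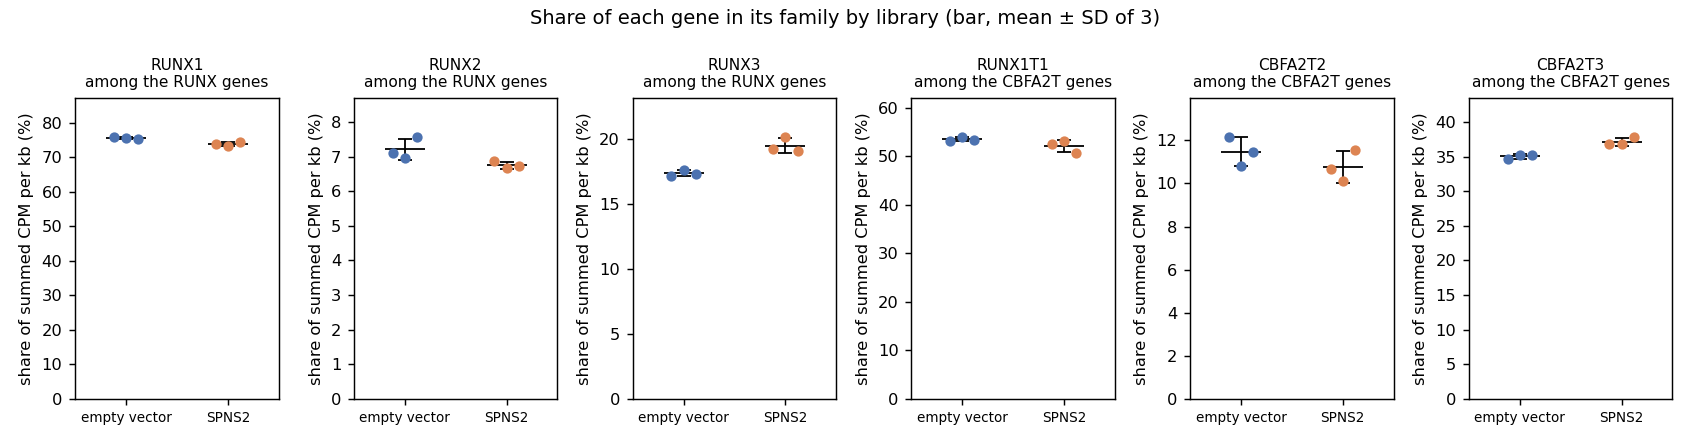
Share of each gene in the summed level per kilobase of its family (vertical axes in percent, each from 0), for the 3 RUNX genes and the 3 corepressor genes; points are libraries and bars are mean ± SD. RUNX3 and CBFA2T3 take a larger share in each SPNS2 library than in any empty vector library, by 2.11 and 2.10 percentage points with these lengths.

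Within the corepressor family CBFA2T3 took 35.1 ± 0.363% of the summed level per length with the empty vector and 37.2 ± 0.570% with SPNS2 (SD, n = 3 each), without overlap. RUNX1T1 took 53.5 ± 0.396% and 52.1 ± 1.27%, and CBFA2T2 took 11.5 ± 0.665% and 10.8 ± 0.726% (SD, n = 3 each). The exact permutation p was 0.10 for CBFA2T3 and RUNX1T1 (0.133 adjusted) and 0.30 for CBFA2T2 (0.343 adjusted). With median transcript lengths the empty vector share of CBFA2T2 was 1.84%. The difference of the RUNX1T1 share, -1.39 percentage points, was -0.676 without SPNS2 library 3. That of the CBFA2T2 share, -0.710, was -0.106 with median lengths, -0.371 without empty vector library 1, -0.376 without SPNS2 library 2 and -1.10 without SPNS2 library 3.

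MYH11, the partner in the fusion, was all but unread in this table. Its row held 4, 8 and 5 counts in the empty vector libraries and 14, 2 and 6 in the SPNS2 libraries, 39 counts in all, and did not pass the filter. Pooled over libraries this was 0.171 CPM (exact 95% Poisson interval 0.0995 to 0.273) with the empty vector and 0.226 CPM (0.142 to 0.342) with SPNS2, intervals that cover counting error only. The ratio of SPNS2 to empty vector was 1.32 (0.672 to 2.66, exact 95% limits from counting alone). The log2 ratio of MYH11 to CBFB per length was -9.43 ± 0.707 with the empty vector and -9.46 ± 1.33 with SPNS2 (SD, n = 3 each; exact permutation p = 1), and its difference changed sign without empty vector library 2 (0.35) or SPNS2 library 2 (0.66).

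A transcript of the fusion contains the 3' part of MYH11, and gene counts do not show whether such reads were assigned to this row. CEP20, the next coding gene beside MYH11 in RefSeq order, was listed at 0 in all 6 libraries, as was DDX39B, an RNA helicase that cells generally use, chosen after its value was seen. NDE1, which overlaps MYH11 on the chromosome, held 7816 counts and averaged 38.7 CPM in empty vector libraries against 40.9 in SPNS2 libraries (log2 fold change 0.08, adjusted p = 0.181 by edgeR). Why these rows are at or near 0 was not tested, and no statement on the level of the fusion can be read from the MYH11 row.

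MYH11 was also set beside other myosins and smooth muscle genes. MYH9, the nonmuscle myosin heavy chain of blood cells, averaged 765 ± 15.9 CPM in empty vector libraries against 739 ± 11.7 in SPNS2 libraries (SD, n = 3; edgeR adjusted p = 0.144). MYH10 was at 2.01 ± 0.397 and 1.64 ± 0.346 CPM (SD, n = 3 each), and MYH14 had 3 counts over the 6 libraries. Of 17 listed genes 9 were tested, with 1 higher and 1 lower (22.2% called beside 24.5%) and a median log2 fold change of -0.05. SMTN, which codes for smoothelin, rose by 0.19 and MYL6, a myosin light chain, fell by 0.11 on the log2 scale. The smooth muscle markers ACTG2, LMOD1 and DES were at 0, while TAGLN had 410 counts over the 6 libraries, ACTA2 94, SYNPO2 27 and CNN1 8. The 7 smooth muscle markers summed to 2.67 to 2.98 CPM in the empty vector group and 2.52 to 2.85 CPM in the SPNS2 group.

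Cofactors that work with the RUNX proteins were called at about the rate of all tested features. Of 21 tested genes 2 rose, 3 fell and 16 were not called, which is 23.8% called beside 24.5% of all tested features, with a median log2 fold change of -0.02. TLE1, a Groucho corepressor that binds the end of RUNX proteins, fell from 9.99 ± 0.417 CPM to a mean of 5.93 ± 0.930 (SD, n = 3; edgeR log2 difference -0.75 with adjusted p = 0.000596), while TLE3 and TLE4 had log2 fold changes of -0.03 and 0.10 and were not called. PRMT1, an arginine methyltransferase that modifies RUNX1, fell by 0.18 (adjusted p = 0.00110 by edgeR). BMI1, a Polycomb subunit, rose by 0.24, and CHD7, a chromatin remodeller that binds RUNX1 and the CBFB fusion protein, fell by 0.24. Both calls were lost without SPNS2 library 1 (adjusted p = 0.0586 for BMI1 and 0.0636 for CHD7) and without SPNS2 library 3 (0.0548 for each). The other gene that rose was CREBBP (0.15, adjusted p = 0.0392), named after its value was seen. The count of 2 higher was 0 without SPNS2 library 1 and 1 when SPNS2 library 2 or either of the empty vector libraries 2 and 3 was dropped. The deacetylases HDAC1, HDAC2, HDAC3 and HDAC8 and the corepressors NCOR1 and SIN3A were not called.

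Among partners of the corepressor family TAL1 had the largest change of the genes called. Of 22 listed genes 18 were tested, with 2 higher, 1 lower and 15 not called, which is 16.7% called beside 24.5% of all tested features, and a median log2 fold change of -0.0092. TAL1, the helix-loop-helix factor of blood stem cells and erythroid cells, was low and fell from 4.67 ± 0.647 CPM to a mean of 1.99 ± 0.0826 (SD, n = 3; edgeR log2 difference -1.23 with adjusted p = 0.000127). LDB1, the adaptor that joins TAL1 and GATA complexes, rose from 273 ± 4.96 CPM to a mean of 310 ± 2.51 (SD, n = 3; edgeR log2 difference 0.18 with adjusted p = 0.000401). ZNF652, a zinc finger protein that recruits CBFA2T3, differed by 0.17 on the log2 scale (edgeR adjusted p = 0.0328), a call that was lost without empty vector library 1 (0.0964) or 2 (0.0789), without SPNS2 library 1 (0.0661), 2 (0.0957) or 3 (0.0857), or with the DESeq2 Wald test (0.0799). GATA1 was at 0 in all libraries.

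Transcription factors that bind beside RUNX1 went both ways. Of 14 listed genes 12 were tested, with 2 higher and 3 lower (41.7% called beside 24.5%) and a median log2 fold change of -0.05. FLI1, an ETS factor, rose from 198 ± 0.869 CPM to a mean of 217 ± 5.66 (SD, n = 3; edgeR log2 difference 0.13 with adjusted p = 0.00467). JUN, a subunit of AP-1, fell by 0.68 and CEBPB, a factor of myeloid differentiation, by 0.27 on the log2 scale, and the third was TAL1. The other gene that rose, named after its value was seen, was ELF1 (0.17, adjusted p = 0.00684 by edgeR). ERG, SPI1, CEBPA, LMO2, LYL1, GATA2 and FOS were not called.

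Among genes known to be controlled by RUNX factors 5 were called higher and 1 lower. Of 24 listed genes 19 were tested and 13 were not called, which is 31.6% called beside 24.5% of all tested features, and the list had a median log2 fold change of -0.03. CSF1R, the macrophage growth factor receptor and a classic RUNX1 target, rose from 3.83 ± 0.296 CPM to a mean of 7.04 ± 0.250 (SD, n = 3; edgeR log2 difference 0.88 with adjusted p = 0.000142). NFE2, a factor of platelet formation, rose from 4.52 ± 0.447 CPM to a mean of 7.47 ± 0.321 (SD, n = 3; edgeR log2 difference 0.73), and CDK6, a cell cycle kinase, from 591 ± 10.2 to 698 ± 10.8 CPM (SD, n = 3; edgeR log2 difference 0.24). The gene that fell was PRTN3, a granule protease (log2 fold change -0.17, adjusted p = 0.0289 by edgeR), whose groups overlapped. It was not called without empty vector library 2 (0.101) or 3 (0.113), without SPNS2 library 1 (0.0709), 2 (0.107) or 3 (0.0574), or with the DESeq2 Wald test (0.0933). MPO, SPI1, CEBPA, CEBPE, GFI1 and ELANE were not called, with log2 fold changes of -0.07 to -0.0021. ANKRD26 (0.23), named after its value was seen, also passed, with an adjusted p of 0.0480 by edgeR. The count of 5 higher fell to 3 without any single library other than empty vector library 1, where it was 4, and the count of 1 lower was 2 without empty vector library 1 and 0 without any other single library.

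**Figure D4:**
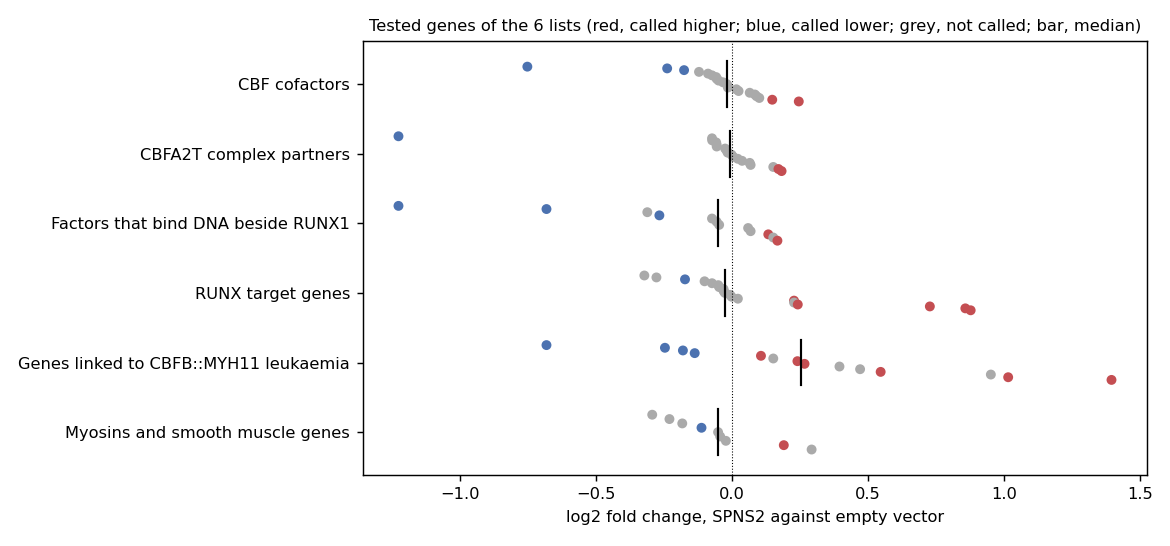
Log2 fold change (horizontal axis) of the tested genes of the 6 lists; red points were called higher, blue points lower and grey points not at all, and black bars are list medians. Medians lie between -0.05 and 0.25, with that of the genes linked to the fusion the farthest from 0. Several genes of that list were known from earlier results of these data.

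Genes linked to leukaemia with the CBFB::MYH11 fusion changed in both directions. Of 17 listed genes 14 were tested, with 6 higher, 4 lower and 4 not called (71.4% called beside 24.5%), and a median log2 fold change of 0.25. KIT, the stem cell factor receptor, rose from 1567 ± 21.4 CPM to a mean of 2287 ± 38.6 (SD, n = 3; edgeR log2 difference 0.55 with adjusted p = 3.68e-08), and SPARC, a matrix glycoprotein, from 323 ± 6.72 to 389 ± 5.41 CPM (SD, n = 3; edgeR log2 difference 0.27). TPSB2, a mast cell tryptase whose reads can be split with the near-identical TPSAB1, rose by 1.39 on the log2 scale. JUN is also in this list and fell, as did MYC (-0.18), CD34 (-0.25) and PLAGL2 (-0.14), while NT5E (1.01), ID1 (0.24) and CSF2RB (0.11) rose; these 6 were named after their values were seen. Without each single library 4 to 6 genes were called higher and 4 lower. Several of these genes were known from earlier results of these data. Their direction, the share called and the list median are therefore not independent evidence. Over the 6 lists together 98 genes were listed, 78 tested, 18 called higher and 11 lower, and 16 genes stand in at least 2 lists. The share called was 37.2% beside 24.5% of all tested features. All 6 lists were chosen with earlier results of these data known, so this share is not independent evidence either.

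Coding genes next to the 8 genes in RefSeq order (GRCh38.p14) were looked up as local comparisons. The neighbours of RUNX3, CLIC4 and SYF2, had log2 fold changes of -0.06 and 0.12 (adjusted p = 0.187 and 0.0562 by edgeR). ACSF3 and PABPN1L beside CBFA2T3 had 0.06 and 0.07, SETD4 beside RUNX1 had 0.02, TRIQK beside RUNX1T1 had 0.15, NECAB3 beside CBFA2T2 had 0.04, and SUPT3H, which overlaps RUNX2, had -0.10, and none of these was called. PHAF1 beside CBFB had 0.14 and was called (adjusted p = 0.0484 by edgeR). CES4A, CLIC6, CLIC5 and SLC26A7 did not pass the filter.

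Genes whose log2 CPM (with 1 CPM added) followed CBFB, RUNX1 and MYH11 most closely were found by Pearson correlation over the 6 libraries, among 8798 named genes with a mean of at least 10 CPM. For CBFB these were AGFG1 (r = 0.987), MARCHF7 (0.985) and TTC14 (0.981), and 107 genes had an r over 0.9. For RUNX1 they were TMEM127 (0.998), CCSER2 (0.998) and ANKRD50 (0.995), with 634 genes over 0.9. The 6 libraries share the group difference and each gene pair shares the library, so such values describe these 6 libraries only. For MYH11, which rests on 2 to 14 counts a library, they were UBE2E2 (0.981), LPGAT1 (0.976) and KDELR2 (0.975), with 39 genes over 0.9.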

How the data were processed

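Per the labels' protocols, a QIAGEN column kit gave the RNA and TruSeq Stranded mRNA the libraries. Per the submitters' processing notes the reads were quantified with Salmon, so the deposited values are estimated counts per gene. Its version, the genome build, the annotation and the step from transcripts to genes: not given in the sources used here. All values were whole numbers (0 were not), so rounding changed nothing. A symbol was found for 29121 of 34371 feature IDs. Transcript lengths are those of GENCODE 29.

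Counts were filtered with filterByExpr (at least 10 counts, and 15 in total). TMM factors were 0.993 to 1.01. The test was edgeR's quasi-likelihood F test (edgeR 4.0.16, R 4.3.3), SPNS2 against empty vector, with Benjamini-Hochberg adjustment over 13308 features and a threshold of 0.05. Standard errors came from dividing each fold change (absolute, log2) by the root of its F. Replicate libraries differed beyond sampling noise (chi-square per degree of freedom 3.11 to 6.09). For rows at 0 the limit is 3 counts per library, or 0.0779 to 0.105 CPM. Shares and ratios were tested by exact permutation (scipy 1.17.1).

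Named genes are the 8 genes, the 4 called genes of lowest p in a list, the myosin heavy chains, the genes most alike and the neighbours; others were named after their values were seen. The 8 genes, the lists and the rule were chosen with earlier results of these data known. Alternatives were edgeR with DESeq2 size factors or upper quartile factors, no filter, a mean of at least 5 CPM, DESeq2 1.42.0, limma voom 3.58.1, a replicate block, each library left out, and other lengths. The pipeline was tested on simulated counts. A few genes that the rule or the lists take in are not reported here.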

Additional observations from a re-analysis of the deposited data

How the results depend on the processing

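RUNX1, RUNX3 and CBFA2T3 stayed called and CBFB, RUNX2 and CBFA2T2 stayed not called under all 13 alternatives run for each, and no log2 fold change changed sign. RUNX1T1 was called under 11 of 13. With the replicate number as a replicate block, 4 of the genes were called and 2723 features of the whole table, against 3263 without it. Libraries of equal number did not deviate together (correlations 0.0312, 0.0375 and -0.0193), so the numbers were not taken as pairs. Without each single library 2246 to 2738 features were called. Upper quartile factors moved the share of higher calls from 48.4% to 55.7%. The log2 ratio of MYH11 to CBFB, SPNS2 minus empty vector, ranged from -0.67 to 0.66 without each single library, with a sign change without empty vector library 2 (0.35) and SPNS2 library 2 (0.66), at 2 to 14 counts of MYH11 per library. For shares and the ratio of CBFB to RUNX genes no direction changed, but sizes did: the RUNX3 difference was 2.11 percentage points as reported and 0.995 with median lengths. Of 156 counts of called list genes under alternatives, 129 were within 1.5 times the reported count. MYH11, MYH14 and the smooth muscle genes below the filter held too few counts to be compared, and the reason was not tested.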
